A study of Homo sapiens with 12 samples.

Results

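The marrow homing and adhesion receptors are 9 genes that leukocytes use to reach, enter and stay in bone marrow: CXCR4, CD44, SELPLG, PECAM1, CD47, ICAM1, ICAM2, ICAM3 and CD99. Every probe with 1 of these symbols was taken, which gave 14 of the 48800 probes on the array. Of these, 11 probes of 7 genes passed the filter on dim probes, out of 14939 probes and 11183 genes that passed it in all. SELPLG and ICAM1 did not pass. CXCR4 is the receptor through which the stromal chemokine CXCL12 draws cells into the marrow and holds them there. SELPLG, when correctly glycosylated, slows rolling cells on selectins, and CD44 binds hyaluronan and can also serve as a selectin ligand. Cells then arrest through integrins that bind the ICAM proteins and cross the vessel wall with the help of PECAM1 and CD99, while CD47 tells phagocytes through SIRPA to spare the cell.

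Gene expression was measured on 12 Illumina BeadChip arrays, in 4 groups of 3 arrays. The leukemic cells carry the label Reh, the name of an established B-precursor line from acute lymphoblastic leukemia. The groups were cells kept with HS5 human stromal cells during 48 h of Ara-C, cells kept with HS human stromal cells during 48 h of Ara-C, cells under Ara-C for 48 h without stroma, and untreated cells without stroma. Ara-C (cytarabine) is a nucleoside analogue that blocks DNA synthesis. HS5 is an established line of human marrow stroma, while the labels say no more of HS and give no Ara-C dose. Stroma was never used without Ara-C.

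The transcripts went against the Reh label in part. Of 16 markers of B-lineage precursors, 7 were detected on all 12 arrays and 4 (PAX5, CD22, VPREB1 and BLNK) on none, while 8 of 9 markers of granulocyte precursors, among them MPO and CTSG, were detected on all 12. The cells are therefore called the cells labelled Reh. Of 20 markers of stromal fibroblasts, 14 were detected on no array of any group, including COL1A1, COL1A2, COL3A1, FN1, LUM, DCN, VCAM1 and CXCL12. The summed normalised intensity of that list was 1846 to 2100 with Ara-C and HS5, 2016 to 2072 with Ara-C and HS, 2075 to 2145 with Ara-C alone and 817 to 899 in untreated cells, with ACTA2 the brightest member. Of the detected markers, COL5A1 had log2 means of 7.11 with HS, 6.08 with Ara-C alone, 5.85 with HS5 and 6.41 in untreated cells. PDGFRB and PDGFRA were also higher in mean with HS than with Ara-C alone, while SPARC, TAGLN and ACTA2 were lower. The part of stromal RNA in these values was not tested. Between 13064 and 14898 probes per array were detected (detection p under 0.01), and precision is limited by having 3 arrays a group. The 12 arrays were positions of a single chip, and since the 3 arrays of a group were neighbours there, an effect of position cannot be told apart from one of group. In these bulk samples, fewer cells of a type and less RNA per cell cannot be told apart either.

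CXCR4, CD47, CD44 and ICAM2 were lower with HS5 than with HS. The 250 bases before the outermost annotated starts of CXCR4 and CD47 are shown only because both hold letters of the NRF1 motif core. NRF1 is a transcription factor of many housekeeping promoters. The sequences are from RefSeq (GRCh38.p14), read 5′ to 3′ on the strand of the gene, with the matching letters in capitals. CXCR4 lies on the minus strand (chr2:136118150-136118399) and CD47 on the minus strand as well (chr3:108091032-108091281).
CXCR4: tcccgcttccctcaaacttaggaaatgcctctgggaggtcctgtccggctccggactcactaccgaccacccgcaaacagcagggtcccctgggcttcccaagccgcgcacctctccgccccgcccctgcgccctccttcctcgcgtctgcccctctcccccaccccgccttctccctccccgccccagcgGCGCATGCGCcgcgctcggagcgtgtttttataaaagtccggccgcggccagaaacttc
CD47: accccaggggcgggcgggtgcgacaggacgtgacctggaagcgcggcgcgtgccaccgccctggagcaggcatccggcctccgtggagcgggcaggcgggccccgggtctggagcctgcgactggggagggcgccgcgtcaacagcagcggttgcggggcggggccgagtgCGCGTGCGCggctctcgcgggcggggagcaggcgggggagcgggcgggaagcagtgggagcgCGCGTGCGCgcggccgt
The motif searched was CGCNTGCGC on both strands, with letters chosen after the sequences had been seen. In CXCR4 the strands each hold a match and these overlap, beginning 59 and 58 bases before the start. In CD47 it occurs at 2 separate places, beginning 79 and 17 bases before the start. Over windows of 300 bases, reaching from 250 before to 50 after a start, 7.52% of 35116 annotated windows hold it. Windows were at hand for 6 of the 9 members, and those of CD44, ICAM1, ICAM3 and CD99 do not hold these letters. SELPLG, PECAM1 and ICAM2 had no entry. A match is a description of the letters only.

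Ara-C alone was followed by higher PECAM1, ICAM2 and ICAM3 and lower CXCR4. A gene was called when its adjusted p in limma, with Benjamini-Hochberg adjustment over all probes kept, was under 0.05, and its brightest probe on average stood for it. By this rule 3 of the 7 members rose and 1 fell in Ara-C against untreated cells, where 50.8% of all genes tested were called (25.1% higher and 25.7% lower). The arrays of the groups did not overlap for 6 of the 7 members, as they did not for 60.0% of all genes. The median log2 fold change of the members was 0.22, beside -0.03 over all genes tested. A share of called members near that of all genes is not a result about these receptors as a set.

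Against Ara-C alone, CD47 and CD99 moved with HS, and no member was called with HS5. In Ara-C + HS against Ara-C, CD47 rose and CD99 fell, 2 of 7 members, where 40.6% of all genes were called (20.9% higher and 19.8% lower). For these 2 members alone the arrays did not overlap, as was so for 52.3% of all genes. The median log2 fold change of the members was 0.06, beside 0.01 over all genes. In Ara-C + HS5 against Ara-C, limma called 0 of 7 members, where 0.724% of all genes were called (0.456% higher and 0.268% lower), and 3 members (CXCR4, CD44 and ICAM2) had an unadjusted p under 0.05. Their arrays were the ones that did not overlap between these groups, as was so for 19.6% of all genes. The median of the members was -0.11, beside -0.0046 over all genes, and every alternative processing tried also gave 0 calls.

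The direct comparison of both stromal cultures is also the test of whether their effects under Ara-C differ, since both are set against the same Ara-C arrays. In Ara-C + HS5 against Ara-C + HS, CXCR4, CD47, CD44 and ICAM2 were lower and CD99 was higher. These are 5 of 7 members, where 42.1% of all genes were called (20.3% higher and 21.7% lower), and the arrays did not overlap for 6 of 7 members and for 51.6% of all genes. The median log2 fold change of the members was -0.35, beside -0.0087 over all genes. Against untreated cells, 6 of 7 members were called in Ara-C + HS5, 4 higher and 2 lower, where 55.1% of all genes were called (27.1% higher and 28.0% lower). In Ara-C + HS 5 of 7 were called, 4 higher and 1 lower, where 43.7% of all genes were (22.7% higher and 21.0% lower). The arrays did not overlap with the untreated ones for 6 members with HS5 and 4 with HS, beside 62.8% and 53.9% of all genes. All 6 comparisons come from the same 12 arrays, and those that have a group in common share its arrays.

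**Figure D1:**
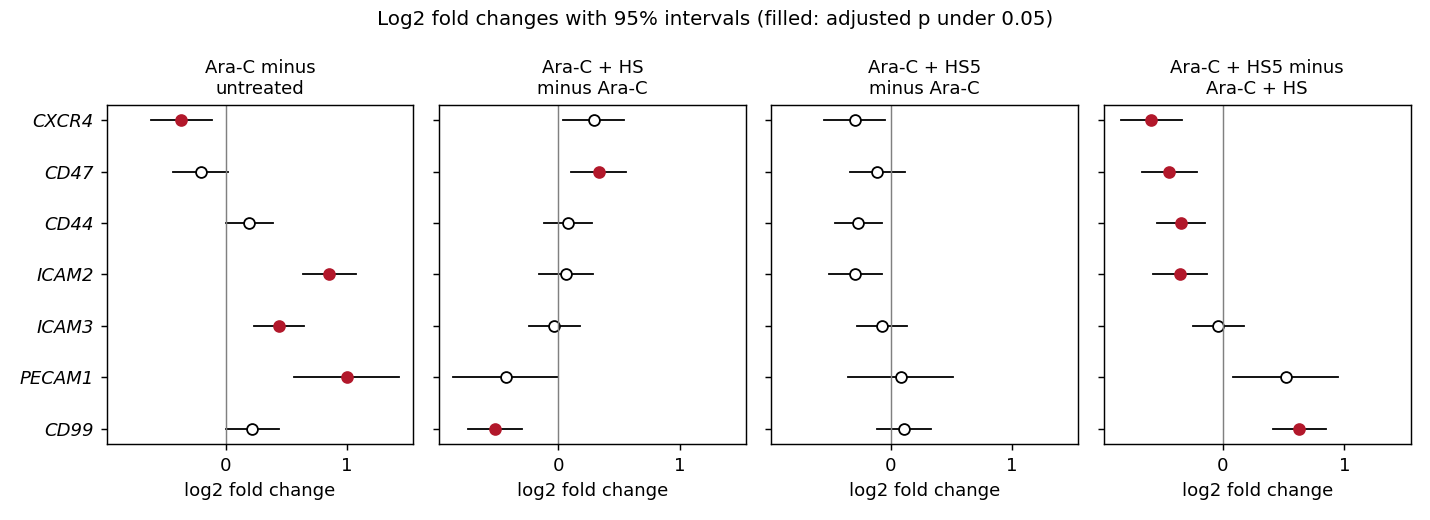
Log2 fold changes of the 7 members detected (rows) in 4 comparisons (panels), each with its 95% interval, filled where the limma adjusted p was under 0.05. PECAM1, ICAM2 and ICAM3 lie right of 0 and CXCR4 left of 0 in Ara-C minus untreated, no member is filled in Ara-C + HS5 minus Ara-C, and 4 members lie left of 0 and CD99 right of 0 as filled points in Ara-C + HS5 minus Ara-C + HS.

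CXCR4 was lower than in untreated cells with Ara-C alone and with Ara-C and HS5, but not called with Ara-C and HS, and it was lowest in mean with HS5. Its brighter probe, ILMN_1801584, had log2 intensities of 8.67, 8.46 and 8.65 with Ara-C and HS5, and of 9.31, 9.26 and 8.98 with Ara-C and HS. On the other arrays it had 8.98, 8.71 and 8.98 with Ara-C alone and 9.26, 9.18 and 9.32 in untreated cells. Every HS5 array was below every array of the other groups, and the Ara-C arrays were all below the untreated ones, while the HS arrays overlapped with both of these groups. CXCR4 fell 1.29-fold in Ara-C against untreated cells (log2 fold change -0.37, SE 0.12, limma adjusted p = 0.0189). In Ara-C + HS5 it fell against Ara-C + HS (log2 fold change -0.59, SE 0.12, adjusted p = 0.00143) and 1.58-fold against untreated cells (-0.66, SE 0.12, adjusted p = 0.000379).

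The stromal cultures set against Ara-C alone left CXCR4 uncalled on this probe. The difference was 0.29 for HS (95% interval 0.04 to 0.55, limma adjusted p = 0.0608) and -0.29 for HS5 (-0.55 to -0.04, adjusted p = 0.306). In Ara-C + HS against untreated cells it was not called either, with a difference of -0.07 (-0.32 to 0.18). The mean levels ran, from high to low, from untreated cells through Ara-C + HS and Ara-C to Ara-C + HS5, and no pair of neighbours in that order was called. The fall with Ara-C depended on the scaling and on single arrays. When arrays were set to a common median in place of quantile normalization, which put the median of all genes at 0.19 in this comparison, the difference was -0.16 (adjusted p = 0.355). Without Ara-C replicate 2 it was -0.27 (adjusted p = 0.0872), and without untreated replicate 3 it was -0.33 (adjusted p = 0.0631). The signals as scanned, before any normalization, ran from 497 to 602 with Ara-C and from 548 to 643 in untreated cells and thus overlapped.

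A second CXCR4 probe, ILMN_2320888, was also lower with Ara-C alone and with HS5 than in untreated cells. Its log2 intensities were 7.68, 7.73 and 7.60 with Ara-C and HS5 and 8.06, 8.19 and 7.86 with Ara-C and HS. With Ara-C alone they were 7.71, 7.73 and 7.75, against 8.06, 8.07 and 7.90 in untreated cells. The HS5 and Ara-C arrays overlapped with each other and all lay below those of the other groups. On this probe CXCR4 fell in Ara-C against untreated cells (-0.28, limma adjusted p = 0.0329), was higher in Ara-C + HS than in Ara-C (0.31, adjusted p = 0.0261) and lower in Ara-C + HS5 than in Ara-C + HS (-0.37, adjusted p = 0.00951) and than in untreated cells (-0.34, adjusted p = 0.0110). It was not called in Ara-C + HS5 against Ara-C (-0.06, 95% interval -0.28 to 0.15), where the brighter probe gave -0.29, nor in Ara-C + HS against untreated cells (0.03, -0.19 to 0.25), where the sign was the opposite of that on the brighter probe. Its scanned signals were 277 to 281 with Ara-C and 261 to 278 in untreated cells, so the fall with Ara-C on this probe appears after normalization. The summed level of the B-lineage markers was 3177 to 3691 with Ara-C and HS5, 6883 to 7095 with Ara-C and HS, 4175 to 4426 with Ara-C and 6882 to 7302 in untreated cells. The sum of the granulocyte precursor markers was 38998 to 41950 with Ara-C and HS5 and 48180 to 51249 with Ara-C and HS. It was 41715 to 45863 with Ara-C and 56537 to 62853 in untreated cells. Single B-lineage markers did not all follow their sum. By the same groups RAG1 read 6.23, 8.16, 6.36 and 8.12, but CD79B read 10.78, 10.84, 11.04 and 10.50. The part of either cell type in the CXCR4 values was not tested.

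CD47, the signal that restrains phagocytes, was higher with HS than in the other cultures with Ara-C. Probe ILMN_1771333 read 10.23, 10.28 and 10.43 with Ara-C and HS5 and 10.73, 10.58 and 10.95 with Ara-C and HS. It read 10.44, 10.45 and 10.37 with Ara-C alone and 10.69, 10.61 and 10.59 in untreated cells. The HS arrays were all above the Ara-C and HS5 arrays, which overlapped with each other, and they overlapped with the untreated ones. Before normalization the scanned signals did overlap, at 1368 to 2043 with HS, 1458 to 1567 with Ara-C alone and 1200 to 1375 with HS5. CD47 rose 1.26-fold in Ara-C + HS against Ara-C (log2 fold change 0.33, SE 0.10, limma adjusted p = 0.0223). It was 1.36-fold lower in Ara-C + HS5 than in Ara-C + HS (-0.44, SE 0.10, adjusted p = 0.00445) and 1.24-fold lower than in untreated cells (-0.32, SE 0.10, adjusted p = 0.0208).

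The other comparisons of CD47 on this probe were not called. They were Ara-C against untreated (-0.21, 95% interval -0.43 to 0.02, limma adjusted p = 0.116), Ara-C + HS5 against Ara-C (-0.11, -0.33 to 0.12) and Ara-C + HS against untreated (0.13, -0.10 to 0.35). From high to low the mean levels ran Ara-C + HS, untreated, Ara-C and Ara-C + HS5, again with no neighbours called. The rise with HS over Ara-C was not called with the common median (0.22, adjusted p = 0.226), nor from the 6 arrays of these groups alone (adjusted p = 0.0504). It was also not called without Ara-C replicate 3 (adjusted p = 0.0676) or without Ara-C + HS replicate 3 (adjusted p = 0.0975), which had the highest CD47 level of all arrays. The fall with HS5 against untreated cells was not called with the common median (adjusted p = 0.143), nor without Ara-C + HS5 replicate 1 (adjusted p = 0.0735), Ara-C + HS5 replicate 2 (adjusted p = 0.0563) or untreated replicate 1 (adjusted p = 0.0673).

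The dimmer CD47 probe, ILMN_2356991, read 7.82, 7.68 and 7.70 with Ara-C and HS5 and 8.01, 7.96 and 8.57 with Ara-C and HS. It read 7.91, 7.62 and 7.66 with Ara-C alone and 8.21, 8.31 and 8.19 in untreated cells. Ara-C + HS replicate 3 again stood above all other arrays, and every untreated array was above every Ara-C and HS5 array. On this probe CD47 fell in Ara-C against untreated cells (-0.51, SE 0.15, limma adjusted p = 0.0109), which the brighter probe did not pass. It rose in Ara-C + HS against Ara-C (0.45, adjusted p = 0.0254) and was lower in Ara-C + HS5 than in Ara-C + HS (-0.45, adjusted p = 0.0258). The scanned signals of this probe also overlapped, at 267 to 450 with HS and 260 to 313 with Ara-C alone. The difference between the probes was not tested.

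CD44, the hyaluronan receptor, was read by 3 detected probes, of which 1 was called in Ara-C against untreated cells and 2 in Ara-C + HS5 against Ara-C + HS. The brightest, ILMN_1803429, had log2 intensities of 12.01, 12.06 and 12.02 with Ara-C and HS5 and of 12.39, 12.45 and 12.29 with Ara-C and HS. It had 12.37, 12.34 and 12.17 with Ara-C alone and 12.18, 12.03 and 12.08 in untreated cells. The HS5 arrays lay close together and below all HS and Ara-C arrays, and the HS arrays lay above all untreated ones. CD44 was 1.27-fold lower in Ara-C + HS5 than in Ara-C + HS (log2 fold change -0.35, SE 0.09, limma adjusted p = 0.00809), and 1.21-fold higher in Ara-C + HS than in untreated cells (0.28, SE 0.09, adjusted p = 0.0250).

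For CD44 neither Ara-C nor stroma against Ara-C alone gave a call on this probe. The difference was 0.20 in Ara-C against untreated (95% interval -0.00018 to 0.39, limma adjusted p = 0.0898), 0.08 in Ara-C + HS against Ara-C (-0.11 to 0.28) and -0.26 in Ara-C + HS5 against Ara-C (-0.46 to -0.07, adjusted p = 0.235). With a common median, Ara-C against untreated was 0.36 and called (adjusted p = 0.0206), and it was also called without Ara-C replicate 3 (adjusted p = 0.0471). Under that scaling the lower level with HS5 than with HS missed the threshold (adjusted p = 0.0532). The call of Ara-C + HS against untreated cells was lost with the common median, from the 6 arrays of these groups, and without Ara-C + HS replicate 1 or 2 or untreated replicate 2 or 3, at adjusted p-values of 0.0508 to 0.0837. The mean levels ran, from high to low, Ara-C + HS, Ara-C, untreated and Ara-C + HS5, with no neighbours called.

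The middle CD44 probe, ILMN_2348788, ranged from 8.14 to 8.41 with Ara-C and HS5, from 8.67 to 8.81 with Ara-C and HS, from 8.31 to 8.59 with Ara-C and from 8.31 to 8.68 in untreated cells. It was lower in Ara-C + HS5 than in Ara-C + HS (-0.43, limma adjusted p = 0.0120), like the brightest probe, and its difference in Ara-C against untreated was -0.06 (-0.32 to 0.20). The dimmest, ILMN_1778625, ranged from 6.25 to 6.49 with Ara-C and HS5, from 6.48 to 6.58 with Ara-C and HS, from 6.54 to 6.92 with Ara-C and from 5.96 to 6.38 in untreated cells. On this probe CD44 rose in Ara-C against untreated cells (0.48, SE 0.13, adjusted p = 0.00846). Its untreated signals lay near the lowest detected level of their arrays (5.75 to 5.79), with detection p of 0.0040 to 0.0079. CD44 transcripts are known to be spliced in many forms, and which of them each probe reads is not stated in the files. Whether the probes differ from each other was not tested.

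**Figure D2:**
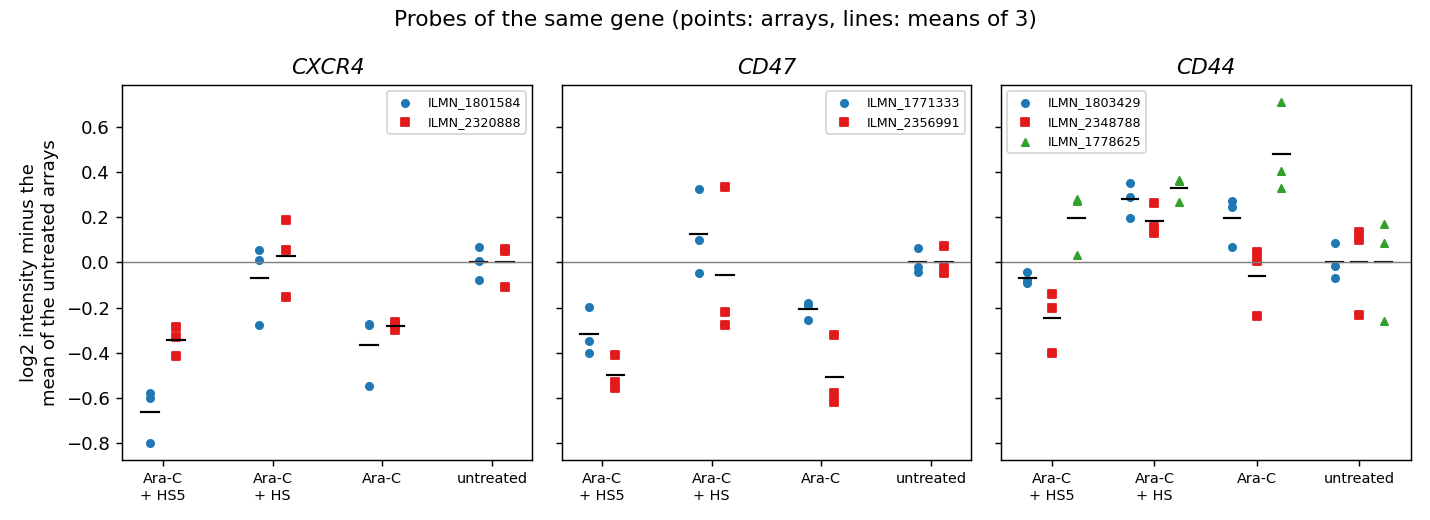
Log2 intensity of each array minus the mean of the untreated arrays (vertical axis) in the 4 groups for the detected probes of CXCR4, CD47 and CD44. Points are arrays and lines are means of 3. The CXCR4 and CD47 probes lie below 0 with Ara-C and HS5 and with Ara-C alone, while with Ara-C alone 2 of the 3 CD44 probes lie above 0 and the other has a mean of -0.06.

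ICAM2 and ICAM3, ligands of the leukocyte integrin LFA-1, rose in all groups with Ara-C. ICAM2 (ILMN_1786823) had log2 intensities of 9.42, 9.51 and 9.76 with Ara-C and HS5 and of 9.88, 9.98 and 9.90 with Ara-C and HS. It had 9.79, 9.95 and 9.82 with Ara-C alone and 9.01, 9.07 and 8.92 in untreated cells. The untreated arrays were far below all 9 others, and the HS5 arrays lay between them and the rest without overlap. ICAM2 rose 1.81-fold in Ara-C against untreated cells (log2 fold change 0.85, SE 0.10, limma adjusted p = 1.88e-05), 1.89-fold in Ara-C + HS (0.92, adjusted p = 1.76e-05) and 1.48-fold in Ara-C + HS5 (0.56, adjusted p = 0.000465).

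With HS5 the level of ICAM2 was below that with HS (-0.36, SE 0.10, limma adjusted p = 0.0135), a call lost without Ara-C + HS5 replicate 1 (-0.29, adjusted p = 0.0608). Against Ara-C alone, HS5 gave -0.29 (95% interval -0.51 to -0.07, adjusted p = 0.245) and HS gave 0.06 (-0.16 to 0.28), neither of them called. From high to low the mean levels of ICAM2 ran Ara-C + HS, Ara-C, Ara-C + HS5 and untreated, and of these steps only that between Ara-C + HS5 and untreated was called.

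ICAM3 (ILMN_2212763), the ICAM of resting leukocytes, read 12.38, 12.33 and 12.56 with Ara-C and HS5 and 12.48, 12.51 and 12.39 with Ara-C and HS. It read 12.57, 12.49 and 12.41 with Ara-C alone and 12.06, 12.16 and 11.95 in untreated cells. All 9 arrays with Ara-C overlapped among themselves and were above the untreated ones. ICAM3 rose 1.35-fold in Ara-C (log2 fold change 0.44, SE 0.10, limma adjusted p = 0.00211), 1.32-fold in Ara-C + HS (0.41, adjusted p = 0.00457) and 1.29-fold in Ara-C + HS5 (0.37, adjusted p = 0.00587) against untreated cells. Between the groups with Ara-C, the largest difference was -0.07 for HS5 against Ara-C alone (95% interval -0.28 to 0.14). Only the step down to untreated cells, the lowest group, was called among neighbours in level.

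PECAM1 (ILMN_1689518), the platelet endothelial adhesion molecule that many leukocytes also carry, had the largest fitted fold change among the members. Its log2 intensities were 8.24, 8.01 and 7.81 with Ara-C and HS5 and 7.73, 7.58 and 7.21 with Ara-C and HS. With Ara-C alone they were 7.91, 8.23 and 7.67, against 6.57, 7.30 and 6.96 in untreated cells. The untreated arrays were below all Ara-C and HS5 arrays, overlapped with the HS ones, and had an SD of 0.37. PECAM1 rose 1.99-fold in Ara-C (log2 fold change 0.996, SE 0.20, limma adjusted p = 0.00113), 2.11-fold in Ara-C + HS5 (1.08, SE 0.20, adjusted p = 0.000560) and 1.48-fold in Ara-C + HS (0.56, SE 0.20, adjusted p = 0.0371) against untreated cells.

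The rise of PECAM1 with HS against untreated cells was the least firm of these. It was not called with no filter on detection (adjusted p = 0.0965) or from the 6 arrays of these groups (adjusted p = 0.0522). Without Ara-C + HS replicate 1 the adjusted p was 0.130, without Ara-C + HS replicate 2 it was 0.0959, without untreated replicate 1 it was 0.159, and without untreated replicate 3 it was 0.0725. Against Ara-C alone, the difference was -0.43 for HS (95% interval -0.87 to 0.000092, adjusted p = 0.104) and 0.08 for HS5 (-0.35 to 0.51, adjusted p = 0.903). HS5 against HS gave 0.51 (0.08 to 0.95, adjusted p = 0.0558), which missed the threshold although the arrays did not overlap, and 11 of 22 alternatives called it. From high to low the mean levels ran Ara-C + HS5, Ara-C, Ara-C + HS and untreated, and of the neighbours only Ara-C + HS and untreated differed by a call.

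Endothelial cells and platelets also carry PECAM1. Of 10 endothelial markers, 8 were detected on no array, CDH5 and KDR among them, and only TIE1 on all 12. The summed level of that list was 264 to 319 with Ara-C and HS5, 322 to 390 with Ara-C and HS, 257 to 270 with Ara-C and 190 to 195 in untreated cells. Of 10 markers of megakaryocytes and platelets, 6 were detected on no array, PF4, PPBP and GP9 among them. The endothelial sum was lowest in untreated cells and highest with HS. PECAM1 was in mean also lowest in untreated cells, and lower with HS than with Ara-C alone. The part of endothelial cells and platelets in the values of PECAM1 was not tested.

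Monocytes and some T and NK cells carry PECAM1 too, and the sums of their markers stood in the same order over the groups as the mean of PECAM1. The macrophage and monocyte list, with 7 of 12 markers detected on no array (MSR1, MRC1 and CD163 among them), summed to 4751 to 4878 with Ara-C and HS5, 3185 to 3783 with Ara-C and HS, 4118 to 4594 with Ara-C and 1704 to 1885 in untreated cells. The T and NK cell list, with 6 of 12 markers detected on no array (CD2, CD3E and CD5 among them) and 4 on all, summed to 7134 to 7890 with Ara-C and HS5, 4125 to 5072 with Ara-C and HS, 6082 to 6802 with Ara-C and 2977 to 3234 in untreated cells. That order did not hold for each marker alone. LYZ read 10.15 with Ara-C and HS5, 8.33 with Ara-C and HS, 10.34 with Ara-C and 8.24 in untreated cells. By the same groups CSF1R read 9.14, 8.93, 9.31 and 7.29, CD68 11.52, 11.38, 11.22 and 10.31, and CD14 7.27, 5.39, 6.15 and 5.43. NKG7, CD3D and CD8A had the order of PECAM1. CD247 (6.62, 6.32, 6.95 and 6.09) and NCAM1 (8.61, 8.55, 8.59 and 8.59) did not. The part of these cell types in the values of PECAM1 was not tested.

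CD99 (ILMN_2056032), a glycoprotein that cells use after PECAM1 to cross the endothelium and that leukemic lymphoblasts often carry, was lowest with HS. It read 8.61, 8.41 and 8.35 with Ara-C and HS5 and 7.82, 7.90 and 7.76 with Ara-C and HS. It read 8.24, 8.50 and 8.31 with Ara-C alone and 8.08, 8.11 and 8.20 in untreated cells. The HS arrays were below every array of the other 3 groups, and the HS5 and Ara-C arrays overlapped with each other and lay above the untreated ones. CD99 fell 1.43-fold in Ara-C + HS against Ara-C (log2 fold change -0.52, SE 0.10, limma adjusted p = 0.00145) and was 1.55-fold higher in Ara-C + HS5 than in Ara-C + HS (0.63, SE 0.10, adjusted p = 0.000338). Both of these calls were made under all 22 alternatives.

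Against untreated cells CD99 was higher with HS5 (0.33, limma adjusted p = 0.0154) and lower with HS (-0.30, adjusted p = 0.0299). The first was lost without Ara-C + HS5 replicate 1 (adjusted p = 0.0712). The second was lost with the common median (-0.10, adjusted p = 0.542), with no filter (adjusted p = 0.0602), and without Ara-C + HS replicate 1 (adjusted p = 0.0674), Ara-C + HS replicate 3 (adjusted p = 0.0893), untreated replicate 2 (adjusted p = 0.0556) or untreated replicate 3 (adjusted p = 0.0966). Ara-C against untreated gave 0.22 (95% interval -0.00094 to 0.44, adjusted p = 0.0908), which the common median called at 0.47 (adjusted p = 0.00523). HS5 against Ara-C gave 0.11 (-0.11 to 0.33). From high to low the mean levels ran Ara-C + HS5, Ara-C, untreated and Ara-C + HS, and only the last step was called.

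**Figure D3:**
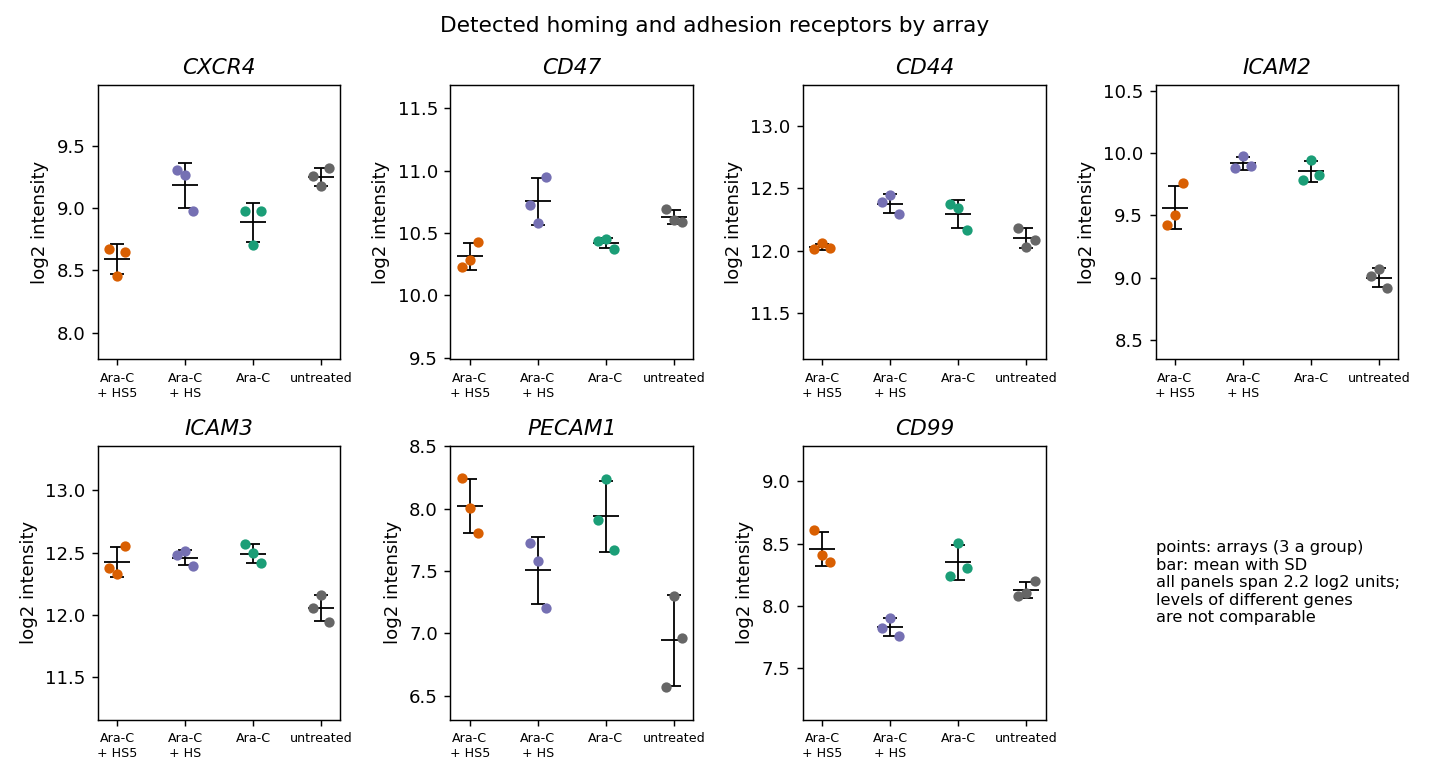
Log2 intensity (vertical axis) of the 7 detected members on each array, by group, with the mean and SD of 3 arrays. Each panel spans the same range but at its own level, so levels of different genes are not comparable. The untreated arrays sit lowest for ICAM2, ICAM3 and, in mean, PECAM1, the HS arrays lowest for CD99, and the HS5 arrays lowest for CXCR4.

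SELPLG, the ligand of P-selectin, and ICAM1, the inducible ligand of LFA-1, were not detected on any of the 12 arrays. The SELPLG probe ILMN_1734855 had log2 intensities of 4.64 to 5.40 and a lowest detection p of 0.0224, reached in untreated cells. The ICAM1 probe ILMN_1812226 ranged from 4.54 to 5.30, with a lowest detection p of 0.0158. The remaining CXCR4 probe, ILMN_2246410, stayed between 4.31 and 4.58. The lowest level that counted as detected was 5.41 to 5.94, depending on the array, so these probes give only an upper bound and no fold change is given for them. One probe that is not detected does not show that the transcript is absent, as the CXCR4 probes show side by side.

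**Figure D4:**
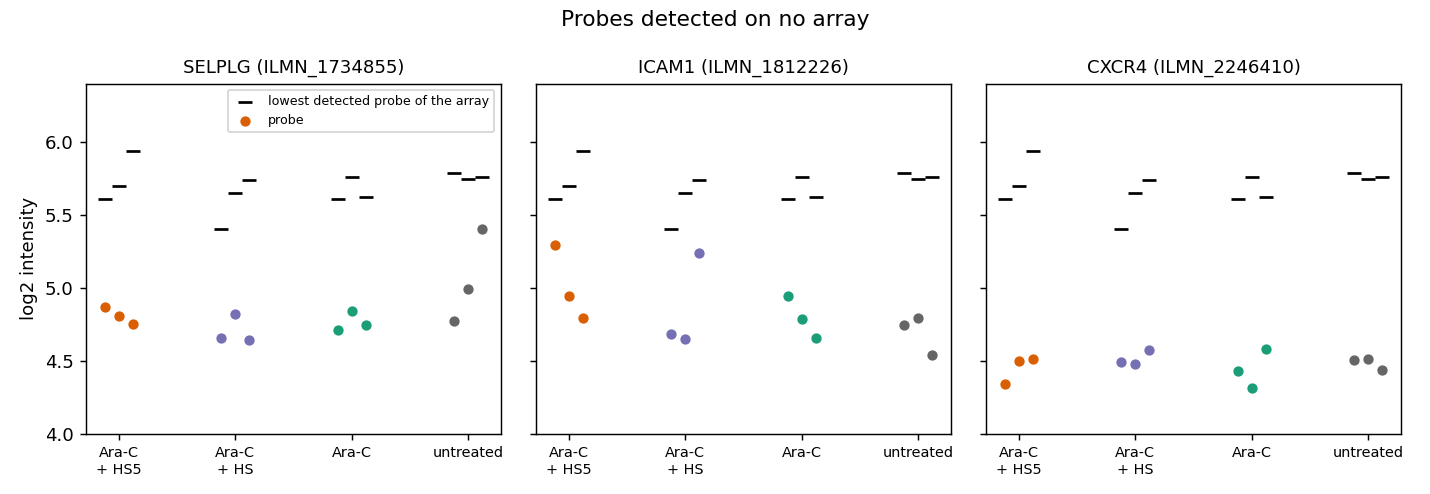
Log2 intensity (vertical axis) of the 3 member probes that were detected on no array, by group, with a dash for the lowest detected probe of each array. The points lie between 4.31 and 5.40, below the dashes of their arrays, which lie between 5.41 and 5.94.

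Partners of these receptors were taken from lists of the pathway, chosen with earlier results of these data known. Among signalling partners of CXCR4, 11 rose and 3 fell of 20 tested in Ara-C against untreated cells, where 50.8% of all genes were called. Their median log2 fold change was 0.43, beside -0.03 over all genes. PIK3CG, a kinase downstream of chemokine receptors, rose by 1.197 on the log2 scale, RGS2, a brake on G protein signals, by 0.78, and GNAI2, a G protein subunit, by 0.67. In Ara-C + HS against Ara-C, 5 rose and 5 fell, where 40.6% of all genes were called. RGS1 (-1.24, detected on 1 of 3 HS arrays) and RGS2 (-0.95) fell, and CD74, which forms a receptor for MIF with CXCR4, rose by 0.84. In Ara-C + HS5 against Ara-C the brake RGS16 alone was called (0.78, limma adjusted p = 0.0259), where 0.724% of all genes were called.

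Counter-receptors of the ICAM proteins and the machinery that activates them had 8 of 13 tested genes higher and 2 lower in Ara-C against untreated cells, where 50.8% of all genes were called, with a median of 0.81. The integrin gene ITGAM rose by 2.78 on the log2 scale. ITGAX, not detected in untreated cells, rose at least 2.38-fold, measured against the dimmest detected signal, and the adaptor gene FYB rose by 1.72. In Ara-C + HS against Ara-C, 5 rose and 3 fell, where 40.6% of all genes were called. Those that rose included RASGRP2, which switches on the integrin activator RAP1 (1.46), ITGAX (1.45) and APBB1IP, a RAP1 effector (0.75). ITGAM and ITGAX are genes of myeloid cells. The summed level of the macrophage and monocyte markers, given with PECAM1, was also higher with Ara-C than in untreated cells, and its part in these changes was not tested.

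Of 14 tested genes around CD44 and hyaluronan, the matrix sugar it binds, 8 rose and 1 fell in Ara-C against untreated cells (median 0.46), where 50.8% of all genes were called. In Ara-C + HS against Ara-C 0 rose and 6 fell (median -0.17), where 40.6% of all genes were called, and both comparisons share the Ara-C arrays. MMP9, a protease that docks on CD44, rose by 3.02 on the log2 scale with Ara-C and had a log2 fold change of -3.88 with HS against Ara-C, where it fell. SPP1 (osteopontin), a CD44 ligand, rose at least 4.49-fold with Ara-C and was at least 5.04-fold lower with HS, where it was not detected. HAS3, which makes hyaluronan, rose at least 1.52-fold with Ara-C and fell by 0.86 with HS, where 1 of 3 arrays detected it. In Ara-C + HS5 against Ara-C, 0 of the 14 were called, where 0.724% of all genes were.

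Selectin ligand synthesis had 4 genes higher and 6 lower of 18 with Ara-C (median -0.10), where 50.8% of all genes were called. The sulfotransferases TPST1 (1.22) and TPST2 (0.85), which modify SELPLG, rose, and CHST2 rose at least 1.58-fold. In Ara-C + HS against Ara-C, 6 rose and 3 fell, where 40.6% of all genes were called. ST3GAL4 (0.70) and FUT4 (0.66), which build the sialyl Lewis x sugars that selectins bind, rose. CHST2 fell (-0.66, detected on 2 of 3 HS arrays). Of the integrins of the marrow niche, 3 of 10 rose and 3 fell with Ara-C, again beside 50.8% of all genes called. ITGA4, a chain of the VCAM1 receptor, fell in Ara-C against untreated cells (-0.66), was higher in Ara-C + HS than in Ara-C (0.43) and lower in Ara-C + HS5 than in Ara-C (-0.62, limma adjusted p = 0.0432). ITGAV rose with Ara-C (0.94), ITGB7 rose at least 1.92-fold, and with HS over Ara-C ITGA5 rose (0.42) and ALCAM fell (-0.52).

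Among ligands and partners of CD47, 3 rose and 2 fell of 9 with Ara-C (median -0.06), where 50.8% of all genes were called. In Ara-C + HS against Ara-C 3 rose and 3 fell (median -0.04), where 40.6% of all genes were called. QPCT, related to the enzyme that finishes the SIRPA binding site of CD47, was detected on 1 of 3 untreated arrays and had a log2 fold change of 3.05 with Ara-C, and of -1.88 with HS against Ara-C. SIRPA, the receptor that reads CD47, rose with Ara-C (0.71). BNIP3, a mitochondrial protein reported to bind CD47, fell with Ara-C (-0.61) and rose with HS (1.16), and SIRPB1 fell with HS (-0.84). Of 12 junction and migration molecules, 5 rose and 1 fell with Ara-C (median 0.19), beside the same 50.8% of all genes. CD48 rose by 1.86, F11R by 1.11 and PILRA by 0.89. With HS against Ara-C, 3 rose and 1 fell, beside 40.6% of all genes called. CD48 fell (-2.54), CD38, which binds PECAM1, rose (1.65), and PILRB rose (0.27).

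**Figure D5:**
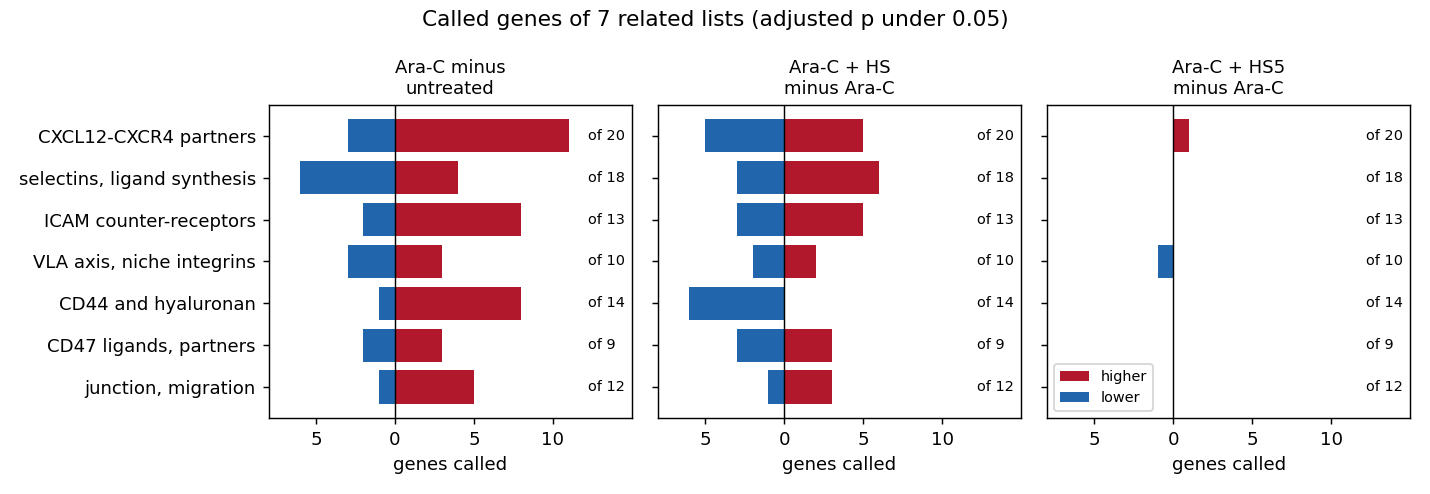
Number of genes called higher (right of 0) and lower (left of 0) at a limma adjusted p under 0.05 in 7 lists of related genes, in 3 comparisons with Ara-C alone as a member, with the number tested at the right. The CD44 and hyaluronan bars point right in Ara-C minus untreated (8 higher, 1 lower) and left in Ara-C + HS minus Ara-C (6 lower), and 2 genes in all are called in Ara-C + HS5 minus Ara-C. Of all genes tested, 50.8%, 40.6% and 0.724% were called in these comparisons, in that order.

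The genes whose 4 group means ran most like each member were found among 7761 genes detected on all 12 arrays, by the root mean square difference of the centred log2 means over 4 groups. For CXCR4 they were MCTP1 (0.020) and PIK3R1 (0.023), and for CD47 WDR68 (0.0018) and ITPR2 (0.0099). For CD44 they were COMMD3 (0.018) and NCAPD2 (0.025), for ICAM2 PLEK (0.033) and GAMT (0.035), and for ICAM3 LPIN1 (0.0028) and GLA (0.0087). PECAM1 was nearest to MKNK2 (0.013) and PTPDC1 (0.015), and CD99 to POR (0.014) and PSMB2 (0.024). The likeness rests on 4 group means and is a description.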

How the data were processed

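Biotin-labelled RNA of 12 samples was hybridised to Illumina HumanHT-12 v3 arrays, with independent triplicates per the labels. Per the file headers, each probe of the deposited scanner tables has an average intensity and a detection p-value, and the arrays had not been normalized to each other. The deposited processed values are on the log2 scale and matched the log2 of quantile-normalized signals to within 0.000167. R 2.9.2 is named in the submitters' processing notes. Here, signals were corrected and normalized with neqc (offset 16) of limma 3.58.1 in R 4.3.3. Probes with a detection p under 0.01 on at least 3 arrays were kept. One limma model (lmFit, eBayes) with 4 group means over 12 arrays (8 residual degrees of freedom) gave 6 contrasts, 2-sided, with Benjamini-Hochberg adjustment over all kept probes. Errors are SE for fold changes and SD for means. The procedure was also run on simulated data with independent noise and few changed probes, unlike these data, and nothing is concluded from it here. The members, lists and tests were chosen with earlier results of these data known. The rule for related genes named the 3 called genes of each list with the largest change whose arrays did not overlap, in each of the 3 main comparisons, and for each member the 2 genes most like it. Replicate numbers were not used to pair the samples, and deviations of same-numbered arrays correlated at -0.041 to 0.031. With 3 arrays a group, this cannot show whether same-numbered cultures were set up together. Alternatives changed the background correction, source of values, scaling, filter, probes, arrays in the fit, block and variance model, and left out each array. Probe positions were not used here. The summed level of the megakaryocyte and platelet markers is not reported here.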

Additional observations from a re-analysis of the deposited data

Results flagged for a closer look

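Of the 7 members tested, 5 differed in level between the 2 stromal cultures under Ara-C, by limma's test of HS5 against HS. That test equals the difference between the effects of the cultures over the same Ara-C arrays. In the same comparison 42.1% of all 11183 genes were called. That difference was -0.5885 on the log2 scale for CXCR4, -0.4415 for CD47, -0.3475 for CD44 and -0.3553 for ICAM2, and 0.6288 for CD99. The adjusted p-values were 0.00143, 0.00445, 0.00809 and 0.0135 for the genes lower with HS5, in that order, and 0.000338 for CD99. For each of the 5 genes, on the probe that stood for it, all 3 arrays with HS5 lay on 1 side of all 3 with HS. The dimmest CD44 probe was not called here (-0.13, limma adjusted p = 0.446). Against Ara-C alone, CXCR4, CD44 and ICAM2 were called with neither culture on the probes that stood for them. No calls were lost for CXCR4, CD47 and CD99 under the 22 alternatives, while CD44 and ICAM2 each lost the call under 1 of them. Position on the chip and group cannot be told apart.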

How the results depend on the processing

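Each of the 7 members was recomputed in 6 comparisons under 22 alternatives, 924 values in all, of which 856 kept their direction and their side of the threshold, 25 passed it newly, 32 no longer passed and 11 changed sign. The rises of PECAM1, ICAM2 and ICAM3 with Ara-C over untreated cells and the fall of CD99 with HS over Ara-C were called under all 22. The number of members called in Ara-C + HS against Ara-C, 2 as reported, was 4 without background correction, 4 in the deposited values, 4 with an intensity trend and robust variances, 1 with a common median and 1 from 6 arrays. For Ara-C + HS against untreated cells, 5 as reported, it was 3 with a common median, 3 with no filter and 3 from 6 arrays. The cause was not tested. Leaving out 1 array at a time gave 3 to 5 members called in Ara-C against untreated, 1 to 2 in Ara-C + HS against Ara-C, 0 to 0 in Ara-C + HS5 against Ara-C, 4 to 6 in Ara-C + HS5 against Ara-C + HS, 2 to 5 in Ara-C + HS against untreated and 4 to 6 in Ara-C + HS5 against untreated. All values that changed sign belong to differences near 0 that were not called. With a common median, which put the median of all genes at 0.19 in Ara-C against untreated, 0.13 in Ara-C + HS against untreated and -0.11 in Ara-C + HS5 against Ara-C, they were CD44 (-0.085) and ICAM2 (-0.0361) in Ara-C + HS against Ara-C, PECAM1 (-0.0097) in Ara-C + HS5 against Ara-C, ICAM3 (0.0108) in Ara-C + HS5 against Ara-C + HS and CXCR4 (0.0672) in Ara-C + HS against untreated. With 1 array left out, they were, with the range over all arrays left out, ICAM3 in Ara-C + HS against Ara-C (0.0033 and 0.0067, range -0.071 to 0.0067), PECAM1 in Ara-C + HS5 against Ara-C (-0.0516 and -0.0299, range -0.0516 to 0.2302), CXCR4 in Ara-C + HS against untreated (0.0321, range -0.1327 to 0.0321) and ICAM3 in Ara-C + HS5 against Ara-C + HS (0.0077, range -0.1049 to 0.0077). CXCR4 in Ara-C + HS against Ara-C was called under 6 alternatives, with adjusted p-values over all 22 of 0.0219 to 0.219, and PECAM1 under 3 (0.0376 to 0.334). For CD47 in Ara-C against untreated, the mean of its probes was called (-0.36, adjusted p = 0.0220). The replicate number as a block called PECAM1 in Ara-C + HS5 against Ara-C + HS (limma adjusted p = 0.0369). The block gave 48 genes called in Ara-C + HS5 against Ara-C, where the fit without a block gave 81. It changed no other call of a member. That count of 81 was 183 without background correction and in the deposited values, 231 with an intensity trend, 50 with no filter, 45 from 6 arrays and 22 to 41 when an array of these groups was left out.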
